A study of Mus musculus with 15 samples.

Results

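The genes described here are those of the 3 families of conjugating enzymes whose symbols begin with Ugt, Gst or Sult. They were chosen by symbol alone, from a RefSeq table in which 68 genes fit the rule, and 57 of these had a probe on the array that could be named through its RefSeq accession. A gene was tested if, in at least 1 tissue group, the scanner software had marked a probe of it as well above background on all arrays. This left 53 genes, 15 Ugt, 22 Gst and 16 Sult, out of 15620 genes tested in all. Gstt4, Sult1c1, Sult6b1 and Sult6b2 were on the array but did not pass, and 11 genes, among them Ugt1a1, Ugt1a9 and Sult2a5, had no named probe.

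Conjugation is the step in which the body joins a foreign or endogenous molecule to a bulky, water-soluble group so that it can leave in bile or urine. UDP-glucuronosyltransferases (Ugt) sit in the endoplasmic reticulum and attach glucuronic acid from UDP-glucuronic acid, glutathione S-transferases (Gst) attach glutathione to reactive electrophiles, and cytosolic sulfotransferases (Sult) attach sulfate from the donor PAPS to hormones, bile acids and drugs. Hepatocytes are the main site of all these reactions, the proximal tubule of the kidney has its own set, and several members differ between the sexes and respond to xenobiotics.

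The samples were tissues of female FVB/N mice, 1 one-colour array per sample. Hosts were wild-type mice that had received monocrotaline, a plant alkaloid toxic to the liver, in 2 intraperitoneal doses of 70 mg/kg at an interval of 2 weeks, and then 1000000 hepatocytes under the kidney capsule from FVB/N donors carrying the hA1AT transgene, for human antitrypsin. Between days 250 and 300, at an age of 48 to 55 weeks, the kidney (host kidney, 4 arrays), the injured liver (host liver, 4 arrays) and the ectopic liver tissue microdissected from the kidney (neo-liver, 4 arrays) were taken. Livers of 3 normal mice aged 20 weeks, with no transplant, served as control liver, so monocrotaline, transplantation and age all differ between hosts and controls and cannot be told apart. A neo-liver holds donor hepatocytes, cells that grew in around them and whatever kidney was cut out with them.

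Every level below is the log2 signal of a gene's probe minus the 75th percentile of its array, and every difference is between group means on that log2 scale. A difference is said to be called, or a gene higher or lower, where limma's test, corrected over all 15620 genes by the Benjamini-Hochberg method, gave an adjusted p under 0.05. The test uses a single spread per gene, shared by all tissues, so a gene uneven in host kidney has a wider error between livers too. A level is specific to its probe and is not compared between genes. That percentile corresponded to signals of 416 to 676 on neo-liver arrays, 561 to 875 on host kidney arrays, 287 to 448 on host liver arrays and 390 to 424 on control liver arrays. The summed level of 10 hepatocyte markers ran from 12.33 to 12.95 on neo-liver arrays, 13.10 to 13.70 on host liver arrays and 13.07 to 13.17 on control liver arrays, against 3.77 to 4.46 on host kidney arrays. Kidney tubule markers were present in the neo-livers. For each of 26 such markers, the signal above the control liver mean was taken as a percentage of that in host kidney. The median of these, the kidney share, was 13.2, 37.9, 15.03 and 29.6% on neo-liver arrays 1 to 4, against 0.00881 to 0.0228% on host liver arrays. The 14 proximal markers alone gave 17.5, 49.4, 21.5 and 37.5% on neo-liver arrays 1 to 4, and the 12 distal ones 11.2, 31.8, 13.7 and 16.6%. Single markers lay further apart, with neo-liver minus host kidney from -0.93 for Slc5a2 to -5.70 for Mep1b. Subtracting the median share is therefore rough for any single gene. Arrays of the host tissues with the same number deviated together, so the numbers are taken to stand for mice. Host kidney arrays filled one slide, neo-liver and control liver arrays shared another, and the host livers were split between a slide for arrays 1 and 2 and a slide for arrays 3 and 4, so that slide and tissue cannot be told apart in any comparison that involves host kidney or host liver.

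The upstream sequences of Sult2a3, Sult2a4 and Sult2a6, neighbours on chromosome 7, are shown first, because these liver-side genes share a run of letters close to their starts. Each run is the 250 bases before the RefSeq start of the gene, read 5′ to 3′ on the gene's strand (build GRCm38.p6). Capitals mark the longest run of letters that the 3 windows share.
Sult2a3 (chr7:14123049-14123298, minus strand): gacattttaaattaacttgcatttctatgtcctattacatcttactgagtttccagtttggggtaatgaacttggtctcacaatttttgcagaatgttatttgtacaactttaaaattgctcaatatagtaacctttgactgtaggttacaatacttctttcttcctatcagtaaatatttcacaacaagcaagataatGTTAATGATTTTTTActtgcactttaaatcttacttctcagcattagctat
Sult2a4 (chr7:13989589-13989838, minus strand): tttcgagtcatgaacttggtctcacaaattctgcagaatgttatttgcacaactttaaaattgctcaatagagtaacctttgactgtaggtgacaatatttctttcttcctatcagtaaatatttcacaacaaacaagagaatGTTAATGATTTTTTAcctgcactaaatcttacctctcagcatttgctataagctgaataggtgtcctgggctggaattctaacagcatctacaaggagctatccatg
Sult2a6 (chr7:14254871-14255120, minus strand): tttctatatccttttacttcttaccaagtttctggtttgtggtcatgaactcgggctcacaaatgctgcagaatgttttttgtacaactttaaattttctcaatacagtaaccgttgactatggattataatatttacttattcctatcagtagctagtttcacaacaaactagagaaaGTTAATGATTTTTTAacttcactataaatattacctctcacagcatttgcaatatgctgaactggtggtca
The shared run, GTTAATGATTTTTTA, was 15 bases long. It began 51 bases before the start of Sult2a3, 107 before that of Sult2a4 and 71 before that of Sult2a6. Among all 32851 windows of this length in the table it was found, on either strand, in 4, those of these 3 genes and of Sult2a5, which had no named probe on the array. Sult2a8, the other tested Sult2a gene with windows, did not hold it. These 3 genes were chosen for display after their sequences were seen, and shared letters are a description of close relatives that does not show that a factor binds there.

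Host liver and host kidney differed in nearly the whole set. In host liver, 41 of the 53 genes were called higher than in host kidney and 9 lower, where 39.5% of all genes were called higher and 31.2% lower. The median difference over the 53 genes was 3.14, against 0.14 over all genes, and the median was 7.90 for Sult, 4.36 for Ugt and 2.26 for Gst. A gene could pass the filter through the livers alone, and 10 of the 53 were not above background on all host kidney arrays, so these were bound to be higher in liver. Genes called and at least 2-fold higher in host liver are called liver-side below (38 genes, and 20.2% of all genes), those called and at least 2-fold lower kidney-side (8 genes, and 20.8% of all genes), and the other 7 shared. The kidney-side genes were Gsta2, Gstm5, Gsto2, Sult1c2, Sult1d1, Sult2b1, Ugt3a1 and Ugt8a. The call of Sult1c2 (-1.44, adjusted p = 0.022) was lost with median centring and with only these 2 groups compared. It was also lost without host kidney 2 and without host liver 1 (adjusted p over these settings from 0.0515 to 0.0649).

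Neo-livers differed widely from the kidney in which they grew. Of the 53 genes, in neo-liver 36 had a higher and 8 a lower level than in host kidney, where 23.2% of all genes were called higher and 29.4% lower, and the median difference was 2.48 against -0.09 over all genes. The 36 were 10 Ugt, 14 Gst and 12 Sult genes, and the 8 were Gstcd, Gstm5, Gsto2, Sult1d1, Sult2b1, Ugt3a1, Ugt3a2 and Ugt8a. The 2 comparisons with host kidney share its 4 arrays. The 10 genes above background in the livers but not on all host kidney arrays, against 481 of all 15620 genes, were bound to be higher here too.

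In neo-liver, 26 of the 53 genes were lower than in control liver and 2, Gstm5 and Sult1c2, were higher, where 29.7% of all genes were called lower and 20.4% higher. The median difference was -0.998, against -0.15 over all genes, and 21 genes fell at least 2-fold, where 8.23% of all genes did. Lower were 11 of 16 Sult genes (median -1.51), 10 of 22 Gst genes (median -0.52) and 5 of 15 Ugt genes (median -0.99). The groups did not overlap in 39 of the 53 genes, against 57.1% of all genes. In bulk tissue, fewer cells of a type and less RNA per cell cannot be told apart. Quantile normalization gave 20 lower and 5 higher.

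Of the 26 falls, 21 were in liver-side genes. Among the 38 liver-side genes, 21 fell and 0 rose (0 also at an unadjusted p under 0.05, limma), with a median of -1.21, whereas over all 3148 liver-side genes of the array 1488 fell and 278 rose, with a median of -0.52. The 10 hepatocyte markers had a median of -0.61 and 7 of them were called lower. Of the 8 kidney-side genes, 2 rose and 3 fell with a median of 0.68, whereas 1933 of all 3245 kidney-side genes rose and 128 fell, with a median of 1.04. With the kidney share of each array subtracted, 32 genes were lower and 0 higher (0 also at an unadjusted p under 0.05, limma), and with the rest then scaled up to a whole, 23 were lower and 1 higher. Of 14 proximal tubule markers, 13 were higher in neo-liver, and their summed level ran from 7.49 to 9.03 in neo-liver, 2.35 to 2.70 in control liver and 10.30 to 10.71 in host kidney. Other cells moved too: of 10 stellate cell and fibroblast markers 6 were higher and 1 lower than in control liver, and of 7 markers of sinusoidal endothelium 1 was higher and 5 lower. Their part in the result was not tested.

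**Figure D1:**
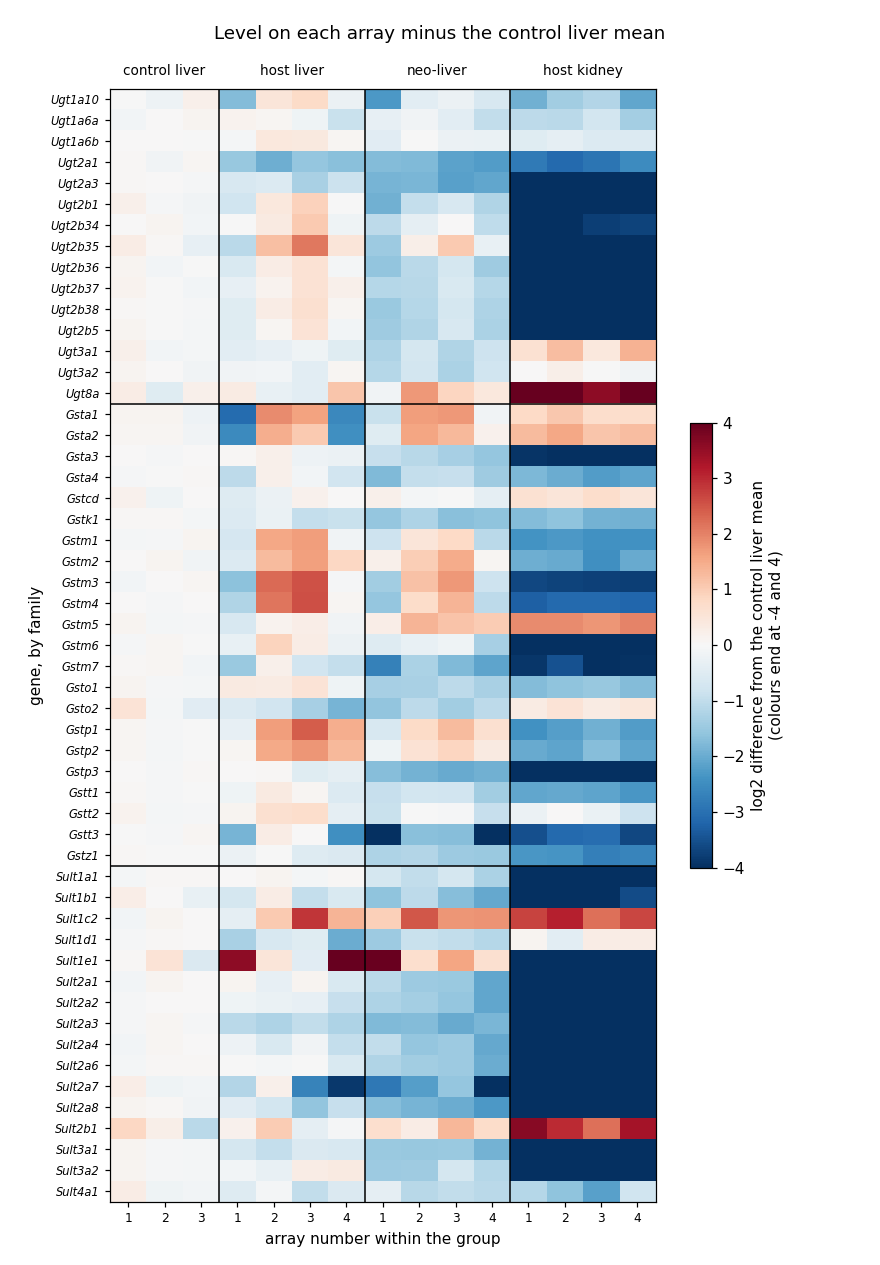
Level of the 53 genes (rows, by family) on each of the 15 arrays (columns, by tissue) minus the mean of the 3 control livers, as a log2 difference in colour. The neo-liver columns are mostly blue in the Ugt2 and Sult2 rows, and the host kidney columns are dark blue in most of the same rows. Over all rows, 26 genes were called lower in neo-liver than in control liver, 11 Sult, 10 Gst and 5 Ugt.

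Against host liver, the other liver of the same mice, 28 genes were lower in neo-liver and 1 was higher, where 31.0% of all genes were called lower and 17.1% higher. The median difference was -0.84 against -0.21 over all genes, and the 28 were 11 Gst, 10 Ugt and 7 Sult genes. In 38 genes the neo-liver was the lower tissue in each of the 4 mice, against 46.6% of all genes, and in Gsta2 and Gstm5 it was the higher tissue in each mouse. The count of lower genes was 17 without host liver 2, 16 without host liver 3 and 17 without neo-liver 1, 9 after quantile normalization and 13 with the kidney share subtracted and the rest scaled up.

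Host liver and control liver gave the fewest calls. Of the 53 genes, 5 were lower in host liver, namely Gstk1, Gsto2, Sult1d1, Sult2a8 and Ugt2a1, and 1 was higher, Gstp2, where 11.3% of all genes were called lower and 13.3% higher. The median difference was -0.14 against 0.07 over all genes. Without control liver 1 the count of lower genes was 3, and without host liver 2 it was 8. The single rise was not called without any 1 of the 3 control livers or without host liver 3 (0 genes, with 1 or 2 at an unadjusted p under 0.05), while without host liver 1 there were 4 rises and without host liver 4 there were 2.

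The Sult2a genes code for hydroxysteroid sulfotransferases, which sulfate bile acids and steroids and in the mouse are made chiefly by the liver of females. Sult2a1 had levels of 8.62, 8.83 and 8.74 in the control livers, 8.85, 8.41, 8.83 and 8.11 in host livers 1 to 4, 7.64, 7.28, 7.23 and 6.66 in neo-livers 1 to 4 and -4.11, -3.31, -4.75 and -6.48 in the host kidneys. All 3 kinds of liver lay far above host kidney, where the gene was above background on 3 of 4 arrays, and all neo-livers lay below all other livers. Its difference was -1.52 ± 0.53 (SE) from control liver (adjusted p = 0.0295), -1.35 ± 0.49 (SE) from host liver (adjusted p = 0.0376) and 11.86 ± 0.49 (SE) from host kidney. The second of these calls was lost without host liver 1, 2 or 3 or without neo-liver 2, 3 or 4 (adjusted p from 0.0561 to 0.0982). It was also lost after quantile normalization (-0.68, adjusted p = 0.273) and with the kidney share subtracted and the rest scaled up (-0.94, adjusted p = 0.141).

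Sult2a6, with one of the windows shown above, repeated this order of tissues. It read 8.78, 8.88 and 8.88 in control liver, 8.84, 8.76, 8.84 and 8.24 in host liver, 7.64, 7.45, 7.38 and 6.85 in neo-liver and -3.05, -2.93, -4.33 and -4.41 in host kidney, with neo-liver below both other livers on every array. The difference of neo-liver was -1.51 ± 0.34 (SE) from control liver and -1.34 ± 0.32 (SE) from host liver, both called, although the second was lost after quantile normalization (-0.65, adjusted p = 0.118). Sult2a4 read 7.40, 7.60 and 7.54 in control liver, 7.30, 6.90, 7.37 and 6.55 in host liver and 6.52, 5.96, 6.07 and 5.45 in neo-liver, and -5.99, -5.01, -8.16 and -7.98 in host kidney, where 1 of 4 arrays was above background. Its groups did not overlap either, but the difference from control liver, -1.51 ± 0.60 (SE), missed the threshold (adjusted p = 0.051). The error is shared by all tissues, and the SD was 1.54 in host kidney, 0.44 in neo-liver and 0.11 in control liver. Neo-liver was called higher than host kidney, most of whose arrays were not above background and give no exact fold. Sult2a2 had -1.56 against control liver and -1.14 against host liver, both called.

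Sult2a3 and Sult2a8 also read lower on every host liver array than on any control liver array. So did Sult2a2 and Sult2a4, by smaller differences that were not called (-0.42 and -0.49). Sult2a3 read 5.28, 5.41 and 5.29 in control liver, 4.24, 4.09, 4.34 and 4.11 in host liver, 3.55, 3.60, 3.32 and 3.49 in neo-liver and -2.85, -4.96, -5.10 and -5.17 in host kidney, so that control, host and neo-liver formed 3 steps without overlap. The step from control liver to neo-liver was -1.84 ± 0.42 (SE) (adjusted p = 0.00256), while that from control to host liver, -1.13, was not called (adjusted p = 0.0634). Sult2a8, whose product sulfates bile acids, read 6.07, 6.005 and 5.80 in control liver, 5.51, 5.21, 4.38 and 5.03 in host liver, 4.27, 4.10, 3.98 and 3.67 in neo-liver and -0.20, 0.09, -0.18 and -0.10 in host kidney. It differed by -0.92 in host liver (adjusted p = 0.00895) and by -1.96 in neo-liver (adjusted p = 9.87e-06) against control liver, and neo-liver lay below host liver on every array. Sult2a7 was the most uneven member of the group, at 1.47, 1.02 and 1.09 in control liver, 0.02, 1.40, -1.49 and -2.68 in host liver and -1.65, -0.998, -0.34 and -3.53 in neo-liver. Its fall against control liver was the largest in the Sult family, -2.82 ± 0.83 (SE) (adjusted p = 0.0121), and as no host kidney array was above background it was at least 32.2-fold higher in host liver and at least 16.7-fold higher in neo-liver than there.

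Sult3a1 and Sult3a2, amine sulfotransferases of female mouse liver, were made by all 3 kinds of liver and were faint or below background in host kidney. Sult3a1 read 8.42, 8.28 and 8.24 in control liver, 7.61, 7.36, 7.72 and 7.68 in host liver, 6.83, 6.79, 6.83 and 6.42 in neo-liver and -7.58, -4.12, -8.12 and -7.93 in host kidney. Host kidney array 2, the only one above background, was the highest of that group. Both host liver and neo-liver were called higher than host kidney, with no exact fold as the other host kidney arrays were not above background. The difference of neo-liver from control liver was -1.60 ± 0.70 (SE), which was not called although the groups did not overlap (adjusted p = 0.0717). Here too the error includes host kidney, where the SD was 1.89, against 0.20 in neo-liver and 0.09 in control liver. Sult3a2 was at least 1848-fold higher in host liver and at least 779-fold higher in neo-liver than in host kidney, where no array was above background. It fell by 1.18 in neo-liver against control liver and by 1.25 against host liver.

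Among the Sult1 genes, the phenol sulfotransferase Sult1a1 and the thyroid hormone sulfotransferase Sult1b1 moved with the liver-side group, with differences of -0.92 and -1.60 from control liver. Sult1c2, made in kidney and stomach, was the largest rise of the set. It read 2.79, 3.0 and 2.90 in control liver, 2.54, 3.95, 5.74 and 4.26 in host liver, 3.86, 5.40, 4.67 and 4.70 in neo-liver and 5.59, 6.01, 5.09 and 5.55 in host kidney. All neo-livers lay above all control livers, by 1.76 ± 0.55 (SE) (adjusted p = 0.0174), while host liver spread over the range of the others. The call was lost without control liver 1 (adjusted p = 0.0526) and with the kidney share subtracted (0.93, adjusted p = 0.161). With the rest then scaled up the difference was 1.34, also not called (adjusted p = 0.0807). Sult1e1, the estrogen sulfotransferase, was uneven between hosts, at 4.75, 1.67, 0.72 and 5.58 in host liver and 5.13, 1.84, 2.77 and 1.83 in neo-liver against 1.22, 1.72 and 0.61 in control liver, and its difference of 1.71 from control liver was not called (adjusted p = 0.219).

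Sult2b1, the cholesterol sulfotransferase of skin and other epithelia, was higher in host kidney than in neo-liver and host liver. It read -1.26, -1.91, -2.71 and -1.57 in host kidney and -4.24, -4.61, -3.56 and -4.18 in neo-liver, against -4.74, -3.90, -5.26 and -4.94 in host liver and -4.07, -4.68 and -5.97 in control liver, where 1 array each was above background. Neo-liver and the other livers overlapped, and the difference of neo-liver from host kidney was -2.28 ± 0.42 (SE) (adjusted p = 0.00053). The brain form Sult4a1 had -0.89 in neo-liver against control liver.

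**Figure D2:**
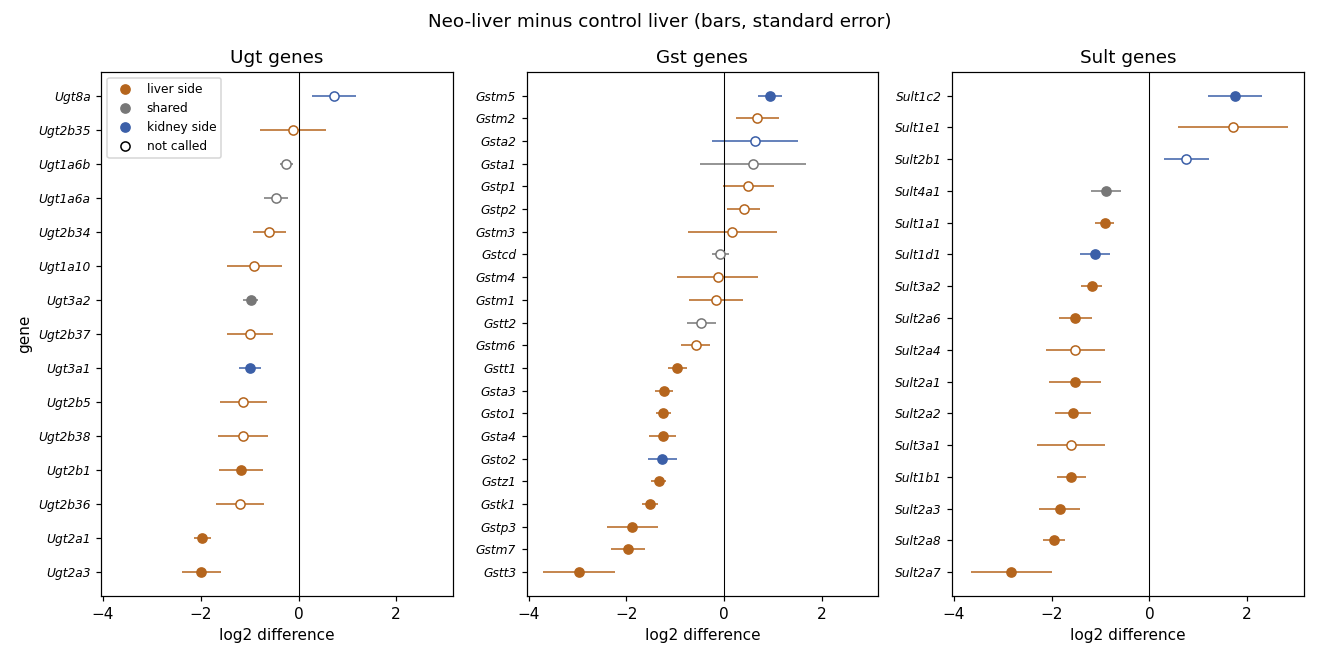
Difference of neo-liver (4 arrays) from control liver (3 arrays) for each gene, as a log2 difference with its standard error, by family. Filled points were called and open points were not, and colours give the organ class: 26 filled points lie left of 0, and the 2 filled points to the right, Gstm5 and Sult1c2, are both kidney-side.

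In the Ugt family, the steepest falls against control liver were those of the Ugt2a genes. Ugt2a3, which glucuronidates bile acids, read 6.25, 6.22 and 6.16 in control liver, 5.56, 5.67, 4.91 and 5.34 in host liver, 4.37, 4.37, 4.03 and 4.12 in neo-liver and -5.96, -5.35, -6.38 and -4.08 in host kidney, with no overlap between any 2 of these groups. The difference of neo-liver was -1.99 ± 0.40 (SE) from control liver (adjusted p = 0.00102) and -1.14 ± 0.37 (SE) from host liver (adjusted p = 0.0205), and it was called higher than host kidney, where 2 of 4 arrays were above background. Ugt2a1, best known from the olfactory epithelium, read -0.59, -0.77 and -0.55 in control liver, -2.15, -2.58, -2.19 and -2.30 in host liver, -2.38, -2.40, -2.76 and -2.87 in neo-liver and -3.48, -3.74, -3.56 and -3.14 in host kidney. Here host liver and neo-liver overlapped and both lay well below control liver, by -1.97 ± 0.17 (SE) in neo-liver (adjusted p = 7.89e-07) and -1.66 ± 0.17 (SE) in host liver (adjusted p = 4.86e-05).

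The 7 tested Ugt2b genes, the main enzymes for steroids and many drugs, were all higher in host liver and in neo-liver than in host kidney, with medians of 7.12 and 5.98. Ugt2b1 read 4.60, 4.33 and 4.23 in control liver, 3.60, 4.82, 5.32 and 4.38 in host liver and 2.46, 3.43, 3.76 and 3.19 in neo-liver. It was above background on no host kidney array, so it was at least 1198-fold higher in host liver and at least 480-fold higher in neo-liver than there. Neo-liver and control liver did not overlap in 5 of the 7 Ugt2b genes, against 57.1% of all genes. The fall of Ugt2b1, -1.18 ± 0.45 (SE) against control liver, was the only one called among them (adjusted p = 0.0419). It was lost without any 1 of the control livers or without neo-liver 1, 2 or 4 (adjusted p from 0.0525 to 0.119). Neither quantile normalization (-0.80, adjusted p = 0.0756) nor scaling up after subtraction of the kidney share (-0.77, adjusted p = 0.195) left it called. Ugt2b35 read 3.42, 3.17 and 2.79 in control liver, 2.05, 4.32, 5.22 and 3.60 in host liver and 1.68, 3.36, 4.17 and 2.84 in neo-liver, so that the 3 livers overlapped, and its difference of -0.11 from control liver was not called.

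Against host liver, 6 of the 7 Ugt2b genes were lower in neo-liver. Ugt2b36 read 5.92, 6.84, 7.12 and 6.47 in host liver and 4.95, 5.45, 5.84 and 5.11 in neo-liver, and Ugt2b38 7.12, 7.91, 8.27 and 7.69 and 6.14, 6.49, 6.93 and 6.37, with no overlap in either gene. The differences were -1.25 ± 0.45 (SE) (adjusted p = 0.0352) and -1.26 ± 0.47 (SE) (adjusted p = 0.0408), and the second was not called with mouse number as a block (-1.26, adjusted p = 0.0528). In the control livers Ugt2b36 read 6.64, 6.43 and 6.52 and Ugt2b38 7.68, 7.62 and 7.56, also above every neo-liver, but the differences of -1.20 and -1.13 were not called. Both calls against host liver were lost without host liver 2, 3 or 4 or without neo-liver 1, 2 or 4, with adjusted p from 0.0546 to 0.0936 for Ugt2b36 and from 0.0658 to 0.104 for Ugt2b38. They were smaller and not called after quantile normalization, at -0.76 (adjusted p = 0.226) for Ugt2b36 and -0.66 (adjusted p = 0.346) for Ugt2b38, and with the kidney share subtracted and the rest scaled up, at -0.85 (adjusted p = 0.154) and -0.87 (adjusted p = 0.157). In host kidney these genes were uneven in a shared way. Ugt2b36 read -2.13, -0.80, -1.98 and 0.35 there, Ugt2b38 0.82, 2.19, 0.85 and 3.47, Ugt2b5 -1.32, -0.05, -1.27 and 1.15 and Ugt2b37 -1.25, 0.05, -1.24 and 1.29, with kidneys 2 and 4 above kidneys 1 and 3 in each gene. In these 4 genes the SD ran from 1.16 to 1.26 in host kidney, 0.25 to 0.39 in neo-liver and 0.06 to 0.13 in control liver. The shared error of the liver comparisons includes that host kidney spread. Ugt2b5 and Ugt2b37 did not overlap between neo-liver and control liver either, at -1.13 and -0.99, neither called. All 4 genes are close relatives, and whether their probes bind each other's transcripts was not tested.

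The Ugt1a genes are variants of one locus that share their last exons, so a probe in those exons reads all of them, and where these probes lie was not examined. Ugt1a10, Ugt1a6a and Ugt1a6b differed from control liver by -0.90, -0.46 and -0.25 in neo-liver, and 0 were called (0 also at an unadjusted p under 0.05, limma), although in each gene the groups did not overlap. The second kept probe of Ugt1a6b gave -1.41 in that comparison. The kept probes of Ugt1a10 gave differences of opposite sign there, and also in neo-liver against host liver and against host kidney. In host liver against host kidney the brighter probe gave 1.46 and the other -1.82. The place of Ugt1a10 among the liver-side genes thus rests on the brighter probe. So does that of Ugt1a6b among the shared genes. Its brighter and other probe gave 0.69 and 3.79 in host liver against host kidney, and 0.24 and 3.14 in neo-liver against host kidney. Ugt8a, the ceramide galactosyltransferase that makes the lipids of myelin, was the most kidney-sided gene of the set. It read -1.17, -1.78, -2.32 and -1.51 in host kidney and -6.04, -4.17, -5.04 and -5.48 in neo-liver, and no control or host liver array and 1 neo-liver array was above background. Host kidney was at least 4.85-fold higher than host liver, and neo-liver differed from host kidney by -3.49 ± 0.41 (SE) (adjusted p = 1.15e-05).

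In 4 members the neo-liver was lower than control liver and also lower than host kidney. Ugt3a1, which uses N-acetylglucosamine as its sugar, read 4.56, 4.24 and 4.28 in control liver, 3.95, 4.03, 4.20 and 3.86 in host liver, 3.11, 3.66, 3.15 and 3.53 in neo-liver and 4.98, 5.60, 4.77 and 5.74 in host kidney. Ugt3a2 read 6.52, 6.44 and 6.27 in control liver, 6.28, 6.31, 5.98 and 6.48 in host liver, 5.26, 5.66, 5.16 and 5.62 in neo-liver and 6.42, 6.63, 6.38 and 6.26 in host kidney. Every neo-liver thus lay below every sample of the other 3 tissues in both genes. For Ugt3a1 the difference was -0.998 ± 0.22 (SE) from control liver, -0.65 ± 0.21 (SE) from host liver and -1.91 ± 0.21 (SE) from host kidney. For Ugt3a2 it was -0.98 ± 0.16 (SE), -0.84 ± 0.14 (SE) and -0.996 ± 0.14 (SE), and all 6 differences were called.

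The other two such genes were the omega-class transferase Gsto2, which reduces dehydroascorbate, and Sult1d1, which sulfates catecholamines. Gsto2 read -0.47, -1.11 and -1.49 in control liver, -1.56, -1.78, -2.34 and -2.89 in host liver, -2.60, -2.07, -2.39 and -2.06 in neo-liver and -0.68, -0.47, -0.70 and -0.58 in host kidney. Sult1d1 read 4.78, 4.87 and 4.85 in control liver, 3.54, 4.18, 4.35 and 2.85 in host liver, 3.38, 3.93, 3.86 and 3.69 in neo-liver and 4.95, 4.42, 5.12 and 5.12 in host kidney. In both genes host liver and neo-liver overlapped and together lay below control liver and host kidney. For Sult1d1 this holds for the brighter of its 2 kept probes. The other gave 1.22 for neo-liver against host liver, where the brighter gave -0.015, and -2.32 for host liver against control liver. Against control liver Gsto2 differed by -1.26 ± 0.29 (SE) in neo-liver and -1.12 ± 0.29 (SE) in host liver, and Sult1d1 by -1.11 ± 0.30 (SE) and -1.10 ± 0.30 (SE), all called. The host liver call was lost without control liver 1 in Gsto2 (adjusted p = 0.0815) and without any 1 of the 3 control livers in Sult1d1 (0.0510 to 0.0591). Among all genes, 4.89% were called lower in neo-liver than in both control liver and host kidney, against 4 of these 53.

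**Figure D3:**
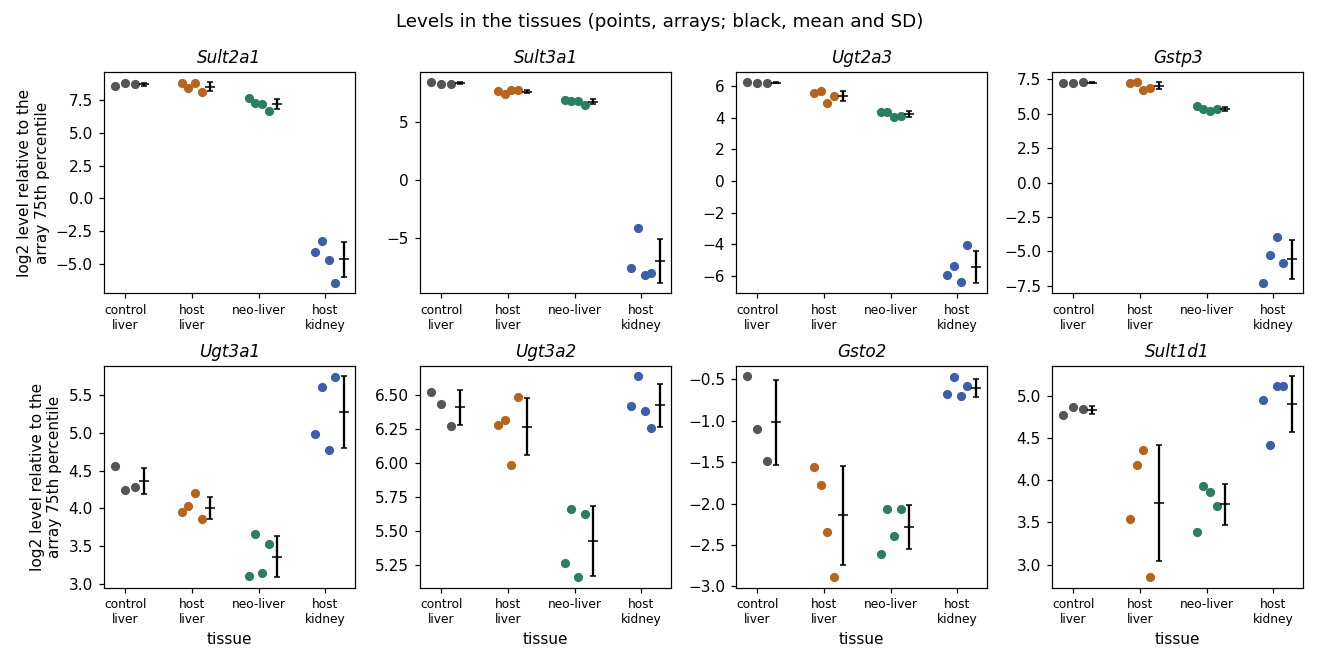
Log2 level relative to the 75th percentile of the array for 4 liver-side genes (top row) and the 4 genes lower in neo-liver than in both control liver and host kidney (bottom row). Points are arrays and the black marks give the mean and SD of each tissue: in the top row neo-liver sits just under the other livers and far above host kidney, in the bottom row below both control liver and host kidney.

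In the Gst family, Gstt3, of the theta class, had the largest fall of the set against control liver. It read 7.37, 7.31 and 7.44 in control liver, 5.52, 7.67, 7.40 and 4.92 in host liver, 2.96, 5.68, 5.67 and 3.31 in neo-liver and 3.84, 4.27, 4.31 and 3.72 in host kidney. All neo-livers lay below all control livers, by -2.97 ± 0.74 (SE) (adjusted p = 0.00474), and neo-livers 1 and 4 lay below every host kidney too. Within each mouse the neo-liver was below the host liver, with differences of -2.57, -1.99, -1.73 and -1.61 in mice 1 to 4, and the difference from host liver was -1.97 ± 0.69 (SE) (adjusted p = 0.03). Gstt1 fell by 0.95 against control liver and by 0.88 against host liver.

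Gstp3, of the pi class, read 7.25, 7.20 and 7.27 in control liver, 7.25, 7.28, 6.75 and 6.88 in host liver, 5.55, 5.36, 5.22 and 5.32 in neo-liver and -7.29, -5.23, -3.94 and -5.87 in host kidney, where 2 of 4 arrays were above background. Neo-liver lay below both livers on every array, by -1.88 ± 0.52 (SE) against control liver (adjusted p = 0.00893) and -1.68 ± 0.48 (SE) against host liver (adjusted p = 0.0118), and was called higher than host kidney. Its pi-class relatives Gstp1 and Gstp2 differed from control liver by 0.50 and 0.40 in neo-liver, neither of them called, and the other kept probe of Gstp1 gave -0.18. Gstp2 was higher in host liver than in control liver, at 7.68, 9.11, 9.36 and 8.91 against 7.68, 7.51 and 7.59, by 1.17 ± 0.33 (SE) (adjusted p = 0.0217). With the mean of its kept probes Gstp2 was not called (0 rises in host liver, with 3 genes at an unadjusted p under 0.05, limma).

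Of the 7 mu-class genes, which are neighbours in 1 cluster, 1 fell and 1 rose against control liver. Gstm7 read 3.26, 3.28 and 3.09 in control liver, 1.74, 3.41, 2.44 and 2.26 in host liver, 0.51, 1.94, 1.43 and 1.09 in neo-liver and -0.70, -0.27, -0.82 and -0.75 in host kidney. All neo-livers lay between the host kidneys and the control livers, -1.96 ± 0.35 (SE) from the latter (adjusted p = 0.000502). Gstm5, a form best known from brain and testis, went the other way and is the only one of the 53 genes called higher in neo-liver than in both other livers. It read 2.85, 2.66 and 2.68 in control liver, 2.10, 2.86, 3.0 and 2.58 in host liver, 2.999, 4.09, 3.87 and 3.74 in neo-liver and 4.61, 4.63, 4.48 and 4.70 in host kidney, with neo-liver between control liver and host kidney and no overlap with either. The difference was 0.95 ± 0.24 (SE) from control liver (adjusted p = 0.00521), 1.04 ± 0.22 (SE) from host liver and -0.93 ± 0.22 (SE) from host kidney. With the kidney share subtracted, the first difference was 0.09 (adjusted p = 0.763), and with the rest then scaled up it was 0.50 (adjusted p = 0.145).

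The 250 bases before the start of Gstm5 are shown because it was the member that rose against both livers. Capitals mark the core of the antioxidant response element, TGACNNNGC, to which the stress factor Nrf2 binds.
Gstm5 (chr3:107895604-107895853, plus strand): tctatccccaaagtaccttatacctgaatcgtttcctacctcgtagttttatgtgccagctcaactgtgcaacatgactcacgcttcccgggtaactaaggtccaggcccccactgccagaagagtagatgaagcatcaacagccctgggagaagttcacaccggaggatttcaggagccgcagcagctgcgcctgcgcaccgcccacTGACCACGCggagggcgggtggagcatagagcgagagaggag
The match began 42 bases before the start. Of the 53 genes, 45 had a window in the table, with 57 windows between them. The antioxidant core was found on either strand in 3 of these 57, of Gsta3, Gstm5 and Gstm7, against 10.2% of all windows. The xenobiotic response element TTGCGTG, to which the Ah receptor binds, was found in 2, of Gstcd and Sult1d1, against 0.925% of all windows. Gstm5 and Gstm7, both with the antioxidant core, moved in opposite directions against control liver.

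Neo-liver had more Gstm1, Gstm2, Gstm3, Gstm4 and Gstm6 than host kidney, and 0 of these 5 genes were called against control liver (0 also at an unadjusted p under 0.05, limma). Gstm6 read 4.19, 4.31 and 4.24 in control liver, 3.95, 5.13, 4.53 and 4.02 in host liver, 3.73, 3.96, 4.07 and 2.91 in neo-liver and -2.24, -2.16, -1.72 and -1.98 in host kidney, 5.69 ± 0.27 (SE) apart in the last pair. Gstm3 read 4.69, 8.60, 8.88 and 6.28 in host liver, 4.95, 7.52, 8.06 and 5.50 in neo-liver, 6.23, 6.36 and 6.42 in control liver and 2.68, 2.63, 2.61 and 2.58 in host kidney. Host liver and neo-liver straddled the control livers in Gstm3, and the difference of neo-liver from control liver was 0.17 ± 0.91 (SE) (adjusted p = 0.891).

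Gsta3, Gsto1, Gstk1 and Gstz1, of 4 other classes, fell against both livers. Gsta3, the main alpha-class form of mouse liver, read 9.41, 9.35 and 9.42 in control liver, 9.43, 9.58, 9.18 and 9.15 in host liver and 8.48, 8.29, 8.06 and 7.83 in neo-liver, and fell by 1.23 against control liver and by 1.17 against host liver. Gsto1 read 5.68, 5.53 and 5.49 in control liver, 5.91, 5.91, 6.12 and 5.39 in host liver, 4.24, 4.28, 4.52 and 4.27 in neo-liver and 3.84, 3.94, 4.04 and 3.84 in host kidney, -1.51 ± 0.14 (SE) from host liver (adjusted p = 2.06e-06). The mitochondrial and peroxisomal Gstk1 read 7.40, 7.38 and 7.26 in control liver, 6.80, 7.07, 6.40 and 6.45 in host liver, 5.79, 6.12, 5.69 and 5.74 in neo-liver and 5.61, 5.74, 5.46 and 5.42 in host kidney. It stepped down from control liver to host liver (-0.67 ± 0.16 (SE)) and again to neo-liver, which overlapped host kidney. Gstz1, which degrades maleylacetoacetate in tyrosine breakdown, fell by 1.34 against control liver and by 1.003 against host liver. Gstcd, which carries a Gst-like domain, read -2.79, -2.89, -2.69 and -2.89 in host kidney, above every neo-liver at -3.19, -3.46, -3.41 and -3.76, with a difference of -0.64, which with normexp background correction was -0.20 and not called (adjusted p = 0.117).

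Some of these genes varied widely between the mice. The range within host liver reached 2 or more on the log2 scale in 13 of the 53 genes, against 7.06% of all genes, and within neo-liver in 9, against 4.56%, while within control liver it did so in none of the 53 (0.954% of all genes, 3 arrays). Gsta1, an inducible alpha-class transferase, read 2.21, 7.19, 6.89 and 2.72 in host livers 1 to 4 and 4.39, 6.97, 7.02 and 5.15 in neo-livers 1 to 4, and Gsta2 read 2.45, 6.46, 6.05 and 2.53 and 4.51, 6.56, 6.31 and 5.15. In both genes mice 2 and 3 were the high ones in either tissue. In the kidneys of the same mice Gsta1 read 6.09, 6.36, 6.005 and 6.003 and Gsta2 6.25, 6.56, 6.12 and 6.22, a far smaller spread, and the control livers read 5.40, 5.39 and 5.08 and 5.07, 5.07 and 4.85. Gsta2 was called lower in host liver than in host kidney (-1.91 ± 0.81 (SE), adjusted p = 0.0477), a call that was lost without any 1 host kidney, without host liver 1 or without host liver 4 (adjusted p from 0.0711 to 0.156).

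The same order of mice was seen in 24 of the 53 genes, in which mice 2 and 3 both lay above mice 1 and 4 in host liver and again in neo-liver, against 12.3% of all genes. They included Gsta1, Gsta2, Gsta4, Gstm1 to Gstm7, Gstp1, Gstp2, Gstt1 to Gstt3 and the Ugt2b genes Ugt2b1, Ugt2b34, Ugt2b35, Ugt2b36, Ugt2b38 and Ugt2b5. The opposite order in both tissues was seen in 0 of the 53 and in 1512 of all genes. This order was noticed after the values were seen and is given as a description. The pattern covered neither Gsta3 nor the Sult2a genes.

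A limma F test of mouse number, fitted to host liver and neo-liver together with tissue as a term, called 20 of the 53 genes, where 12.4% of all genes were called. They were 10 Gst, 8 Ugt and 2 Sult genes, the last being Sult2a2 (adjusted p = 0.0378) and Sult2a6 (0.0493). The lowest adjusted p was 0.0292, shared by Gstm4, Gstt3, Ugt1a10 and Ugt2b35, with 0.0304 for Gstm3. Of the 20, 17 had mice 2 and 3 above mice 1 and 4 in both tissues. Sult2a2, Sult2a6 and Ugt1a6a did not, so a called gene need not follow that order. The same test over host kidney and neo-liver called 0 of the 53 and 0% of all genes (5 members at an unadjusted p under 0.05), and over host kidney and host liver also 0 of 53 and 0% (3 members). With any 1 mouse left out of the first test, none of the 53 was called (28 to 32 at an unadjusted p under 0.05), and with the kidney share subtracted 6 were.

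**Figure D4:**
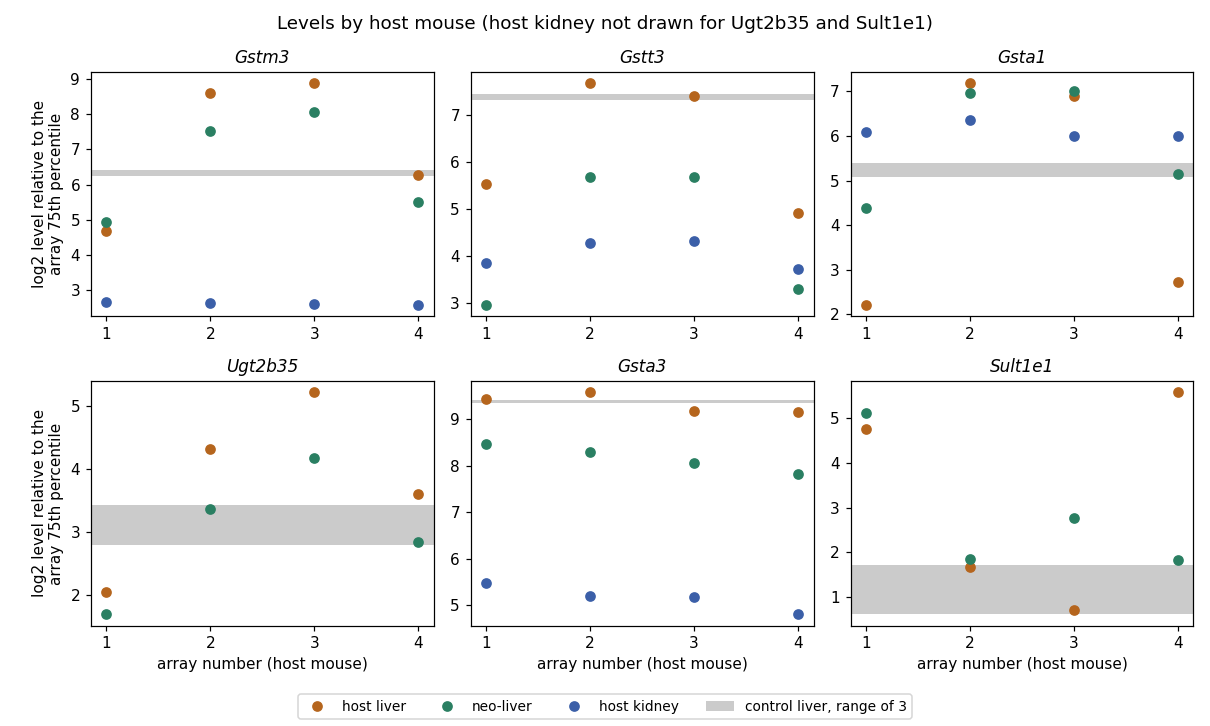
Log2 level relative to the 75th percentile of the array in the 4 host mice for 6 genes, with the range of the 3 control livers as a grey band. In Gstm3, Gstt3, Gsta1 and Ugt2b35 mice 2 and 3 are above mice 1 and 4 in host liver and in neo-liver, in Gsta3 the tissues are level across mice, and in Sult1e1 host livers 1 and 4 are the high ones.

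Genes that supply the conjugating groups or handle the conjugates were read as lists of pathway genes, and their changes were set beside those between host liver and host kidney. Against control liver, 29.7% of all genes were lower in neo-liver and 20.4% higher, with a median of -0.15, and the counts of these short lists are to be read beside those shares. Of 6 genes that supply UDP-glucuronic acid, 1 was called, lower in neo-liver than in control liver (median of the list -0.19): Ugp2, which makes UDP-glucose, at -0.70, while Ugdh, which oxidises it to UDP-glucuronic acid, had -0.27 and was not called. Of 9 genes of sulfate donor supply, 4 were lower and 2 higher (median -0.26). The 2 PAPS synthases parted, Papss2 at -1.32 and Papss1 at 1.30, and so did the sulfate carriers, Slc26a1 at -1.38 and the kidney carrier Slc13a1 at 9.53. Papss1 and Slc13a1 were also lower in host liver than in host kidney, with differences of -2.21 and -10.51.

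Of 14 genes of glutathione supply and turnover, 5 were higher in neo-liver than in control liver and 1 lower (median 0.20). The rises were Ggt1 (8.89) and Dpep1 (4.89), which cut glutathione conjugates at the tubule brush border, Nat8 (3.74), which completes mercapturic acids, Chac1 (2.35) and Ggt5 (0.95), and the fall was Chac2 (-0.91). Ggt1, Dpep1 and Nat8 were lower in host liver than in host kidney, with differences of -11.17, -7.19 and -4.75. Glutathione synthesis itself, by Gclc (0.10), Gclm (-0.28) and Gss (0.21), was not called. Against host liver, where 31.0% of all genes were lower and 17.1% higher, the list had 5 lower and 4 higher genes (median -0.12, all genes -0.21), and Gclc (-0.78) and Gclm (-0.59) were lower. Of 9 glutathione transferases with other names, 4 were higher and 3 lower (median 0.39), among them the microsomal Mgst1 at -0.97 and Mgst2 at 2.43.

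The methyl, acetyl and amino acid transferases moved in the direction of the liver-side Ugt, Gst and Sult genes: 10 of 13 were lower in neo-liver than in control liver and 1 higher (median -1.15). Nicotinamide methyltransferase Nnmt had -6.35, glycine methyltransferase Gnmt -3.37 and indolethylamine methyltransferase Inmt -2.12, and the rise was Acsm2 at 9.55, a gene that differed by -9.43 between host liver and host kidney. Of 14 pumps and carriers 5 were lower and 5 higher, with a median of -0.12 close to that of all genes, -0.15, among them the drug pumps Abcb1a (-1.28) and Abcb1b (1.29) and the tubule carriers Slc22a6 (5.72) and Slc22a8 (7.07). Of 6 genes that remove conjugates or epoxides, 1 was higher, Arsg (1.36), and 1 lower, Ephx2 (-1.26).

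Of 16 regulators of conjugation genes, 9 were lower in neo-liver than in control liver and 1 higher, where 29.7% of all genes were lower and 20.4% higher, and the median was -0.64 against -0.15. The falls included Onecut1 (-2.58), the xenobiotic receptors Nr1i2 (PXR, -1.50) and Nr1i3 (CAR, -1.40), and their partner Rxra (-1.28), and the rise was Bcl6 (0.98). Against host liver 8 were lower, with Nr1i2 at -1.27 and Nr1i3 at -1.25. The antioxidant factor Nfe2l2 (Nrf2) had -0.05 and the Ah receptor Ahr -0.02 in neo-liver against control liver, and neither was called.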

How the data were processed

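RNA of 15 samples was hybridised to one-colour Agilent arrays with Cy3, 1 array per sample. Per the file headers, the intensity values are processed signals of Agilent Feature Extraction 10.10.1.1, background-subtracted and detrended within each array. The authors' deposited series table holds log2 values, each within 0.01 of the log2 signal minus 1 constant per array, and served as an alternative. Of 55681 probes, 34990 were well above background on every array of at least 1 group, which limits the precision of dim genes, and none was saturated. Symbols came from RefSeq accessions, and each gene kept its brightest probe.

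The log2 signal minus the 75th percentile of each array was fitted with limma 3.58.1 (R 4.3.3, lmFit and eBayes) over 4 groups, with Benjamini-Hochberg adjustment over 15620 genes. The fit was tested on simulated data. Where no probe of a gene was above background in a group, the fold is a lower bound against the faintest signal above background. Same-numbered arrays of the host tissues deviated together (r from 0.176 to 0.576), so number was also fitted as a block. The labels do not say that numbers are mice. The p-values measure the spread between the arrays of all 4 groups, and not only of the groups compared.

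Values on every array are given for, per comparison, direction and family, the 3 called genes of largest difference whose groups did not overlap (the 2 in neo-liver against host liver and in host liver against control liver, and the 3 furthest to each organ in host liver against host kidney whether or not they overlapped), and of each pathway list up to 4 called genes are named. Other genes were named after their values were seen. The members and gene lists were chosen with earlier results of these data known. Probe sequences were not used here, so binding to near-identical relatives (Ugt1a, Ugt2b, Sult2a, Gstm, Gsta1 and Gsta2, Gstp1 and Gstp2) was not tested. One planned motif and the gene it concerns are not reported here.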

Additional observations from a re-analysis of the deposited data

Results flagged for a closer look

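Of 90 groups of 4 arrays looked at, over the genes with values on every array, 5 held 1 array far from the rest, where chance gives about 1 in 20 groups. In the neo-livers, Gsto1 read 4.52 on array 3 and 4.24 to 4.28 on the others, and Sult3a1 read 6.42 on array 4 and 6.79 to 6.83 on the others. In the host livers, Sult2a6 read 8.24 on array 4 and 8.76 to 8.84 on the others. In the host kidneys, Sult2a3 read -2.85 on array 1 and -5.17 to -4.96 on the others, and Sult3a1 read -4.12 on array 2, the only one above background, and -8.12 to -7.58 on the others.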

How the results depend on the processing

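The alternatives were run on 56 differences of 30 genes, chosen by the naming rule, and not on the other single differences given. Of 1037 values, 973 kept their side of the threshold, 64 fell short of it and 0 were reversed. Counts that moved did so as follows, and the causes were not tested. Quantile normalization gave 5 rises against control liver, in place of 2, and 9 falls against host liver, in place of 28. Subtracting the kidney share gave 0 rises against control liver and 0 against host liver (0 each at an unadjusted p under 0.05), and 6 genes differing between mice in place of 20. With the rest then scaled up, a setting chosen after seeing the data, there was 1 rise against control liver and there were 13 falls against host liver. In the main fit the median of all genes in neo-liver was -0.15, -0.21 and -0.09 against control liver, host liver and host kidney. It was -0.62, -0.69 and -0.52 with the kidney share subtracted, and -0.20, -0.27 and -0.095 with the rest scaled up. The mean of kept probes, and fits to only 2 groups, gave 0 rises in host liver against control liver (3 and 1 at an unadjusted p under 0.05), and in the latter Gsto2, Gstk1, Sult1d1 and Sult2a8 were not called lower. With normexp there were 8 falls in host liver against control liver, and 31 genes differed between mice. Genes above background on all arrays gave 5 falls against host kidney, in place of 8, as fewer genes were tested. Leaving out 1 array at a time gave 23 to 26 falls and 1 to 2 rises against control liver, 16 to 30 falls and 1 to 2 rises against host liver, and 33 to 36 rises and 8 to 8 falls against host kidney. For host liver it gave 3 to 8 falls and 0 to 4 rises against control liver, and 40 to 42 rises and 7 to 9 falls against host kidney, and for mouse number 0 to 0 genes. With mouse number as a replicate block, neo-liver had 26 lower and 1 higher gene against host liver, and of the named differences fitted so 39 kept their call and that of Ugt2b38 was lost. Genes dim in host kidney are limited by signal over background, so their folds are bounds.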
